A study of Mus with 21 samples.

Results

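The members described here are the rows of *Ankrd11*, *Aff4*, *Taf1*, *Taf6* and *Med13l* in a table of gene counts from mouse embryonic brain. They were chosen by gene symbol as mouse counterparts of transcription regulators whose mutation in people gives syndromes resembling Cornelia de Lange syndrome, 5 of the 55335 genes in the table. All 5 passed the filter on low counts, which kept 30552 genes. The study asked how reduced dosage of *Wapl*, whose product releases the DNA-entrapping cohesin ring from chromatin, alters the consequences of reduced *Nipbl*, whose product loads cohesin and whose mutation is the most common cause of the syndrome. Poly(A) RNA was taken from the whole brain of female embryos at E17.5, one library an embryo, on a background backcrossed to C57BL/6J. The 5 *WT* libraries are labelled Wapl +/+; Nipbl +/+, and the 3 *Nipbl* heterozygotes carry Nipbl +/delta with 2 intact copies of *Wapl*. The 7 *Wapl* heterozygotes carry 1 deleted copy of *Wapl*, written delta/+ in 2 labels and +/delta in 5, with Nipbl +/+. The 6 double heterozygotes carry Nipbl +/delta together with 1 deleted copy of *Wapl*, written delta/+ in 4 labels and +/delta in 2. Both deletions were germline and so present in every cell: the *Wapl* deletion removed the promoter and the first exons, and the *Nipbl* deletion was made by *Stra8-icre* in the male germline of a forebear.

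These genes act at successive steps between a promoter and productive RNA polymerase II. *Taf1* and *Taf6* encode subunits of TFIID, the complex that recognises core promoters and nucleates the preinitiation complex. *Med13l* encodes the subunit that can take the place of *Med13* in joining the kinase module to Mediator, the bridge between enhancer-bound factors and the polymerase. *Aff4* encodes the scaffold of the super elongation complex, which brings P-TEFb, the kinase that frees paused polymerase. *Ankrd11* encodes a nuclear ankyrin repeat protein that binds histone deacetylase complexes and nuclear receptor coactivators and is mutated in KBG syndrome. In people, *AFF4* mutation gives CHOPS syndrome, *TAF6* mutation Alazami-Yuan syndrome, *TAF1* mutation an X-linked intellectual disability and *MED13L* mutation a developmental syndrome with heart and facial features.

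The counts were deposited without normalization, and levels below are normalized counts, that is, counts divided by the library's size after TMM scaling and multiplied by the mean size. Levels are compared between libraries and not between genes, because lengths of the counted transcripts were not used here. Library totals ran from 25682566 to 35818767 counts. The lowest raw count of a member was 1812, and counting alone gave a coefficient of variation of 1.07% to 2.35% over the members' libraries. *Nipbl* stood at 54.3% ± 4.52 (SD, n = 3) of the *WT* mean in *Nipbl* heterozygotes, and *Wapl* at 46.7% ± 4.51 (SD, n = 7) in *Wapl* heterozygotes, in the direction of their labels. Markers of neurons were all detected in every library, with summed levels between 135352 and 158635. Counts of the mitochondrial gene *mt-Nd3* separate the libraries, 9 with 52 to 106 counts, the high set, and 12 with 0 to 6, the low set. All 3 *Nipbl* heterozygotes are in the low set, and among the 13 libraries with a *Wapl* deletion the high set holds exactly those whose label writes the deletion second. In whole-tissue RNA, a lower level can come from fewer cells of a type or from less RNA in each cell, and these cannot be told apart. A gene was called when its adjusted *P* in edgeR's quasi-likelihood test was below 0.10, over all genes tested. The shares of all genes set beside counts of members and list genes include many genes with far lower counts than the members. Shares for genes of like level are not given here.

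**Figure D1:**
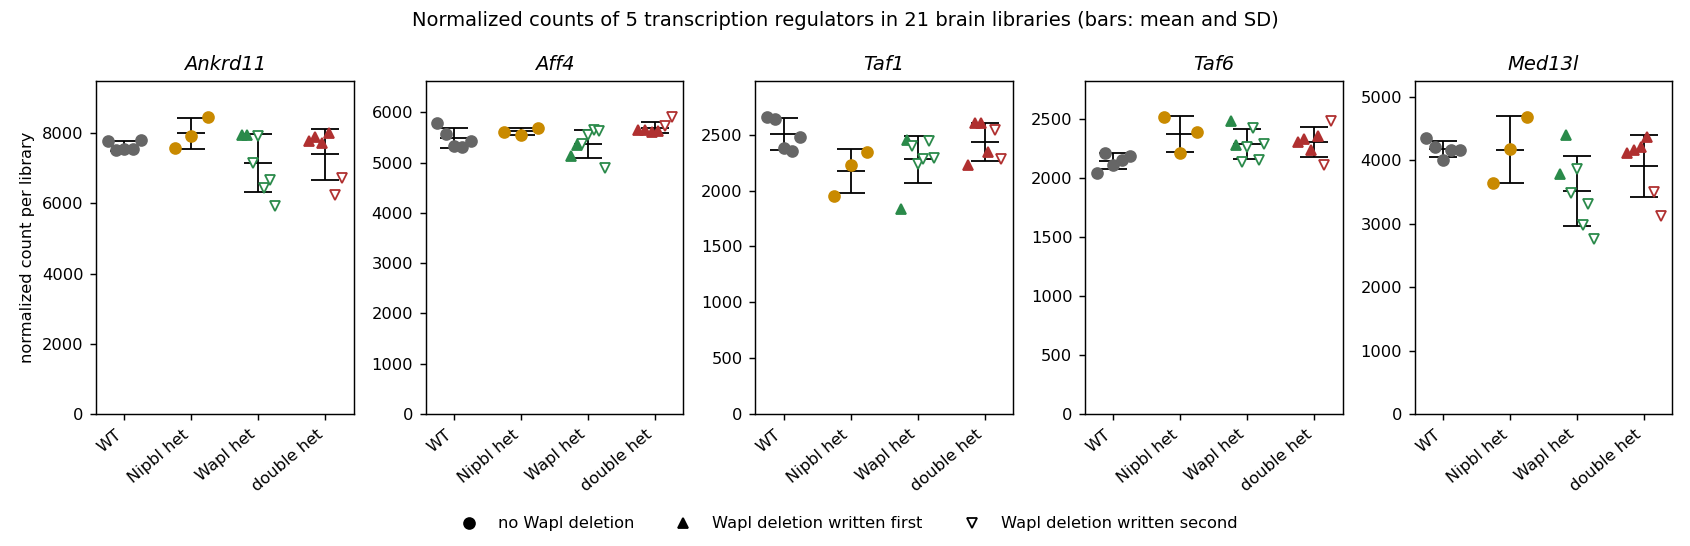
Normalized counts (vertical axis, from 0) of the 5 members in each library by genotype group (horizontal axis), with the mean and SD of each group as bars and the marker showing how the label writes the *Wapl* deletion. *Taf1* is lower in all 3 *Nipbl* heterozygotes than in any *WT* library, and the low values of *Ankrd11* and *Med13l* are mostly open triangles, libraries whose label writes the deletion second.

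*Taf1*, the largest TFIID subunit, was lower in *Nipbl* heterozygotes, at 87.0% ± 7.99 (SD, n = 3) of the *WT* mean, and *Taf6* was higher, at 111% ± 7.25 (SD, n = 3). The members called were these 2 of 5, beside 11.2% of all genes tested in the same comparison. *Taf1* lies on chromosome X of GRCm38 from 101527572 to 101601789. Its normalized counts were 2661, 2639, 2378, 2353 and 2482 in *WT* brains and 1954, 2232 and 2343 in *Nipbl* heterozygotes. The 2 groups did not overlap, the mutant brains being lower, as in 6.9% of all genes, and the third mutant library came close to the lowest *WT* library. The log2 fold change was -0.21 (standard error 0.0558, edgeR adjusted *P* = 0.0272). Without *Nipbl* heterozygote replicate 1, which had the lowest value, it was -0.13 and no longer passed (edgeR adjusted *P* = 0.190). In one fit of all 4 groups it was -0.18 (edgeR adjusted *P* = 0.185), and among libraries of the low *mt-Nd3* set alone -0.24, which passed.

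*Taf6* encodes a histone-fold TFIID subunit and lies on chromosome 5 from 138178617 to 138187451. Normalized counts were 2041, 2212, 2111, 2155 and 2186 in *WT* brains and 2520, 2211 and 2393 in *Nipbl* heterozygotes. Replicates 1 and 3 of the mutants lay above every *WT* library, and replicate 2 lay within the *WT* range. The log2 fold change was 0.14 (standard error 0.0447, edgeR adjusted *P* = 0.0581). It did not pass when any one of 4 libraries was left out: *WT* replicate 1 (0.13), *WT* replicate 3 (0.14), mutant replicate 1 (0.10, edgeR adjusted *P* = 0.311) or mutant replicate 3 (0.15). Within the low *mt-Nd3* set it was 0.16, with an edgeR adjusted *P* of 0.153. The span of *Taf6* shares 1813 bases with that of *Ap4m1*, a subunit of an adaptor complex for vesicle sorting, which had a mean of 2646 counts and rose by 0.16 on the log2 scale in *Nipbl* heterozygotes (edgeR adjusted *P* = 0.0159). Since the strand setting of the counting is not stated, the assignment of reads in the shared stretch is uncertain for both genes.

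In *Wapl* heterozygotes both genes had a difference of the same sign as in *Nipbl* heterozygotes that did not pass, and the 2 comparisons share their *WT* libraries. *Taf1* ranged from 1838 through a median of 2290 to 2449, with 4 of 7 libraries below every *WT* library and the lowest of them, replicate 1, apart from the rest. The log2 fold change was -0.13 (95% interval -0.25 to -0.02, edgeR adjusted *P* = 0.247). *Taf6* ranged from 2134 through 2281 to 2483, with 5 of 7 libraries above every *WT* library, and its log2 fold change was 0.10 (0.01 to 0.18, edgeR adjusted *P* = 0.237). EdgeR called 0 of the 5 members in this comparison, beside 2.22% of all genes, with 3 at an unadjusted *P* below 0.05, beside 15.6%, and DESeq2 called 1.

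In double heterozygotes *Taf1* had a low of 2225, a median of 2442 and a high of 2609. Of the 6 libraries 3 lay below and 3 inside the *WT* range, and the log2 fold change was -0.03 (-0.13 to 0.07, edgeR adjusted *P* = 0.864). *Taf6* had a low of 2108, a median of 2318 and a high of 2486, and 5 of 6 libraries lay above every *WT* library. Its log2 fold change of 0.12 (0.03 to 0.20) had an edgeR adjusted *P* of 0.181, and it passed when double-heterozygote replicate 5, the lowest, was left out (0.14, edgeR adjusted *P* = 0.0298). EdgeR called 0 members in double heterozygotes against *WT*, beside 3.28% of all genes. It gave 1 at an unadjusted *P* below 0.05, beside 13.5%, and DESeq2 called 1, *Taf6*. By group mean the order of *Taf1* was *WT*, double, *Wapl* and *Nipbl* heterozygotes, and each group overlapped its neighbour in that order. For *Taf6* the order was *Nipbl*, double and *Wapl* heterozygotes and then *WT*, again with overlap between neighbours.

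The ratio of *Taf6* to *Taf1* counts within a library does not depend on how libraries are scaled. It joins the members called in opposite directions in *Nipbl* heterozygotes, so its separation there is no separate evidence. It was 0.858 ± 0.0579 (SD, n = 5) in *WT*, 1.10 ± 0.164 (SD, n = 3) in *Nipbl* heterozygotes, 1.02 ± 0.161 (SD, n = 7) in *Wapl* heterozygotes and 0.953 ± 0.106 (SD, n = 6) in double heterozygotes. All 3 *Nipbl* heterozygotes exceeded the highest *WT* library, at 0.916, and their lowest value was 0.991. The exact permutation test, two-sided, gave *P* = 0.0179 for *Nipbl* heterozygotes against *WT*, the smallest that the 56 assignments allow, and 0.114 after adjustment over 10 tests of ratios. In *Wapl* heterozygotes 5 of 7 libraries exceeded every *WT* library (exact permutation *P* = 0.0227, adjusted *P* = 0.114). The ratio in double heterozygotes had an exact permutation *P* of 0.110 against *WT* (adjusted *P* = 0.276).

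**Figure D2:**
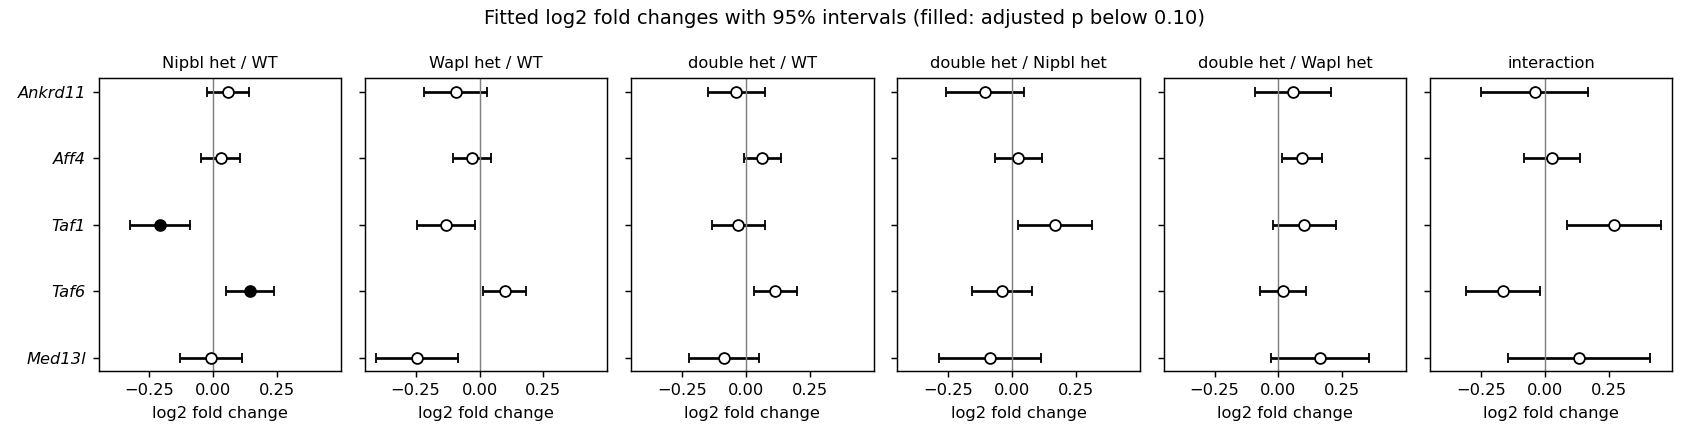
Fitted log2 fold changes (horizontal axis) with 95% intervals of the 5 members (vertical axis) in 5 comparisons of groups and the interaction of the genotypes, filled where the adjusted *P* was below 0.10. The filled points are *Taf1* and *Taf6* in *Nipbl* heterozygotes against *WT*.

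Of the 16 genes of TFIID, including *Tbp*, which binds the TATA element, 3 rose and 1 fell in *Nipbl* heterozygotes, beside 11.2% of all genes called in either direction, and the list's median log2 fold change was 0.03, beside -0.0086 over all genes. The gene that fell was *Taf1*. With *Taf6* rose *Taf4*, a histone-fold scaffold subunit (0.22, edgeR adjusted *P* = 0.00538), and *Taf11*, another histone-fold subunit (0.14, edgeR adjusted *P* = 0.0932). *Tbp* itself had a log2 fold change of 0.02 (edgeR adjusted *P* = 0.873). Without mutant replicate 1 the count was 1 higher and 0 lower, and in the low *mt-Nd3* set 1 higher and 1 lower. In both settings fewer genes were called over the whole table too, which holds for the lists below as well. In *Wapl* heterozygotes, where the median was 0.03, edgeR called 0 of the 16, with 4 at an unadjusted *P* below 0.05, beside 15.6% of all genes, and DESeq2 1. In double heterozygotes, where it was 0.08, edgeR called 0, with 5 at an unadjusted *P* below 0.05, beside 13.5% of all genes, and DESeq2 1.

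Cell-type markers differed in the same comparison as *Taf1* and *Taf6*, in which 11.2% of all genes were called. In *Nipbl* heterozygotes 3 of 4 astrocyte markers fell, and their summed level ran from 8601 to 10921 against 11953 to 12945 in *WT*. Markers of radial glia and intermediate progenitors had 3 of 6 higher, with a summed level from 14857 to 19606 against 15249 to 16057. Of the oligodendrocyte lineage 3 of 5 fell, with a summed level from 4801 to 5904 against 6276 to 6910.3, and of microglia 3 of 5, from 1528 to 1727 against 1848 to 2217. Of neurons 2 of 6 fell, from 135352 to 144793 against 144396 to 150645. No marker of these lists was at 0 in any of the groups. In double heterozygotes edgeR called neither gene, and 3.28% of all genes. Of the markers there, 3 of 4 for astrocytes and 4 of 5 for the oligodendrocyte lineage also fell, with summed levels from 8925 to 11542 and from 4866 to 5878. There the 6 markers of radial glia and progenitors did not pass (smallest edgeR adjusted *P* = 0.122, for *Sox2*), with a summed level from 14414 to 19104, and 1 of 5 of microglia and 1 of 6 of neurons fell. The part of these differences in the values of *Taf1*, *Taf6* and the lists of partners was not tested.

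*Aff4*, on chromosome 11 from 53350640 to 53421830, was the member whose group means differed least in percent of *WT*. Its normalized counts were 5795, 5563, 5333, 5306 and 5437 in *WT* brains and 5605, 5556 and 5698 in *Nipbl* heterozygotes. The mutant libraries fell inside the *WT* range, with a log2 fold change of 0.03 (95% interval -0.05 to 0.10, edgeR adjusted *P* = 0.745). In *Wapl* heterozygotes the lowest, median and highest were 4889, 5370 and 5650.5, and in double heterozygotes 5602, 5650 and 5912. The *Wapl* heterozygotes extended below *WT* in 2 libraries, and 1 double heterozygote lay above *WT*. Against *WT* the log2 fold changes were -0.03 (-0.10 to 0.05, edgeR adjusted *P* = 0.765) and 0.06 (-0.0075 to 0.14, edgeR adjusted *P* = 0.439), and no interval against *WT* reached beyond 0.14 in size. The lowest mean was that of *Wapl* heterozygotes and the highest that of double heterozygotes, which differed by 0.09 (0.01 to 0.17), with an edgeR adjusted *P* of 0.392.

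The partners of *Aff4* were tested as 15 genes of the super elongation complex and P-TEFb. In *Nipbl* heterozygotes 2 rose and none fell (edgeR), beside 11.2% of all genes called, a share near that of the list, whose median was 0.03. *Cdk9*, the kinase subunit of P-TEFb, was among those that rose (0.13, edgeR adjusted *P* = 0.0460). *Ccnt1*, a cyclin partner of *Cdk9*, had -0.14 (edgeR adjusted *P* = 0.109). Without mutant replicate 1, and within the low *mt-Nd3* set, edgeR called 0 of the 15. In *Wapl* and double heterozygotes edgeR called 0 of the 15, with 3 and 2 at an unadjusted *P* below 0.05, beside 15.6% and 13.5% of all genes, and DESeq2 called 1 and 0. Among paralogs of *Aff4*, *Aff2*, silenced in the fragile site disorder FRAXE, fell in *Nipbl* heterozygotes. Its normalized count was 366 ± 52.7 (SD, n = 5) in *WT* and 236 ± 76.4 (SD, n = 3) in the mutants (log2 fold change -0.64, edgeR adjusted *P* = 0.0118). In the low *mt-Nd3* set, and without mutant replicate 1, 1 of the 6 paralogs of members was lower. In *Wapl* and double heterozygotes *Aff2* stood at 281 ± 74.2 (SD, n = 7) and 279 ± 61.8 (SD, n = 6), log2 fold changes of -0.37 in both (edgeR adjusted *P* = 0.189 and 0.156). *Aff1* and *Aff3* had log2 fold changes of 0.02 each in *Nipbl* heterozygotes.

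*Med13l*, on chromosome 5 from 118560330 to 118765438, had its lowest mean in *Wapl* heterozygotes, at 84.1% ± 13.3 (SD, n = 7) of *WT*. Its normalized counts were 4348, 4209, 4011, 4173 and 4159 in *WT* brains and ran from 2768 through a median of 3487 to 4397 in *Wapl* heterozygotes. Of the 7, 6 lay below every *WT* library, and replicate 2 lay above every *WT* library. The log2 fold change was -0.25 (standard error 0.0766, 95% interval -0.41 to -0.09), and it did not pass the threshold (edgeR adjusted *P* = 0.126). It passed by DESeq2 (-0.25, adjusted *P* = 0.0576), with no filter on low counts (edgeR adjusted *P* = 0.0568) and without *Wapl* heterozygote replicate 2 (-0.31, edgeR adjusted *P* = 0.00733), the only one of 12 libraries whose omission gave a call. It shrank to -0.03 (edgeR adjusted *P* = 0.886) among libraries of the low *mt-Nd3* set, which holds 2 *Wapl* heterozygotes, and was -0.34 and not called (edgeR adjusted *P* = 0.158) in the high set. Of 11 other settings in all, 4 gave a call, with adjusted *P* values from 0.00174 to 0.886. The smallest, by edgeR, came from *Wapl* heterozygotes with the deletion written second, a subset chosen after the values were seen.

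In *Nipbl* heterozygotes *Med13l* had 3647, 4180 and 4690 normalized counts, one below, one inside and one above the *WT* range. The log2 fold change was -0.0088 (-0.13 to 0.11, edgeR adjusted *P* = 0.962), and the small sample spread over 12.5% of its mean (coefficient of variation) against 2.88% in *WT*. Double heterozygotes ran from 3129 through 4136 to 4363, with 2 of 6 below every *WT* library. Their log2 fold change was -0.09 (-0.22 to 0.05, edgeR adjusted *P* = 0.6246). The order of the means was *WT*, *Nipbl*, double and *Wapl* heterozygotes, and each group overlapped its neighbour.

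*Med13*, the paralog that *Med13l* can replace, had 2735 ± 117 (SD, n = 5) normalized counts in *WT*, 2532 ± 108 (SD, n = 3) in *Nipbl* heterozygotes, 2504 ± 207 (SD, n = 7) in *Wapl* heterozygotes and 2683 ± 105 (SD, n = 6) in double heterozygotes. Log2 fold changes against *WT* were -0.12, -0.12 and -0.02, with edgeR adjusted *P* values of 0.111, 0.211 and 0.897. The ratio of *Med13l* to *Med13* counts was 1.53 ± 0.0286 (SD, n = 5) in *WT* and 1.41 ± 0.247 (SD, n = 7) in *Wapl* heterozygotes, a difference that did not pass (exact permutation test, two-sided, *P* = 0.242, adjusted *P* = 0.346). The mutant ratios lay on both sides of the *WT* range.

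Among the 7 genes of the Mediator kinase module, *Med12*, which activates the kinase, rose in *Nipbl* heterozygotes (0.15, edgeR adjusted *P* = 0.0444). The kinase paralog *Cdk19* (-0.18, edgeR adjusted *P* = 0.0137) and the *Med12* paralog *Med12l* (-0.16, edgeR adjusted *P* = 0.0999) fell. The list's median was -0.12, and its 3 calls stand beside 11.2% of all genes. Without mutant replicate 1 the count was 1 higher and 0 lower, and in the low *mt-Nd3* set 0 higher and 1 lower. In *Wapl* heterozygotes *Med12l* fell (-0.21, edgeR adjusted *P* = 0.0601), beside 2.22% of all genes called, and the list's median was -0.10. In double heterozygotes 0 of the 7 passed by edgeR, with 2 at an unadjusted *P* below 0.05, beside 13.5% of all genes, and 0 by DESeq2. *Cdk8*, the other kinase, had 0.07, 0.04 and 0.10 in *Nipbl*, *Wapl* and double heterozygotes, none of which passed.

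Core Mediator, a list of 26 genes, had 4 higher and 1 lower in *Nipbl* heterozygotes, beside 11.2% of all genes called, with a median of 0.0095. The genes that rose were *Med25* (0.21, edgeR adjusted *P* = 0.0019), *Med24* (0.19), *Med22* (0.16) and *Med16* (0.13), and the gene that fell was *Med1*, the subunit contacted by nuclear receptors (-0.18, edgeR adjusted *P* = 0.0658). In *Wapl* heterozygotes *Med25* rose (0.17, edgeR adjusted *P* = 0.0381) and *Med1* fell (-0.23, edgeR adjusted *P* = 0.0478), beside 2.22% of all genes called. In double heterozygotes 0 of the 26 passed by edgeR, with 5 at an unadjusted *P* below 0.05, beside 13.5% of all genes, and 1 by DESeq2. Without *Nipbl* heterozygote replicate 1, 2 of the 26 were higher and 0 lower in that group, and within the low *mt-Nd3* set 3 and 0. In *Wapl* heterozygotes 0 of the 26 passed within the low set, where far fewer genes were called over the whole table too.

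**Figure D3:**
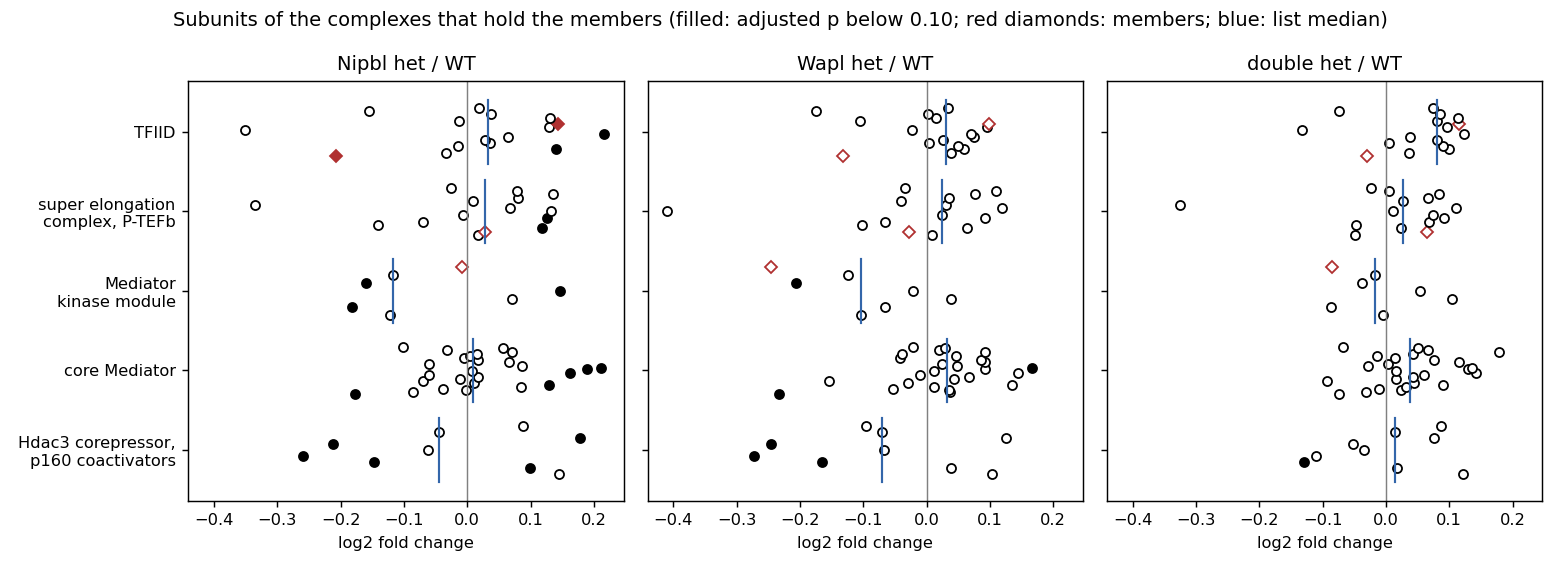
Log2 fold changes against *WT* (horizontal axis) of the genes in 5 lists of partners (vertical axis) in each mutant group, with members as red diamonds, called genes filled and list medians as blue lines. Called genes lie on both sides of 0 in 4 of the lists in *Nipbl* heterozygotes, and 1 gene is filled in double heterozygotes.

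*Ankrd11*, on chromosome 8 from 122883321 to 123042284, was not called in any comparison of groups. Its normalized counts were 7777, 7508, 7560, 7547 and 7810.0 in *WT* brains and 7576, 7923 and 8466 in *Nipbl* heterozygotes. The mutant libraries began inside the *WT* range and 2 of 3 lay above it, with a log2 fold change of 0.06 (95% interval -0.02 to 0.14, edgeR adjusted *P* = 0.450). *Wapl* heterozygotes ran from 5916 through 7162 to 7957 and double heterozygotes from 6250.0 through 7744 to 8016. Both groups held libraries on either side of the *WT* range, 4 below and 3 above in *Wapl* heterozygotes and 2 below and 2 above in double heterozygotes. The log2 fold changes were -0.09 (-0.22 to 0.03, edgeR adjusted *P* = 0.470) and -0.04 (-0.15 to 0.07, edgeR adjusted *P* = 0.830). The coefficient of variation was 1.85% in *WT*, 5.62% in *Nipbl* heterozygotes, 11.6% in *Wapl* heterozygotes and 9.83% in double heterozygotes. By mean the order was *Nipbl* heterozygotes, *WT*, double and *Wapl* heterozygotes, with overlap between neighbours. The paralog *Ankrd12* had log2 fold changes of -0.06, -0.07 and 0.000578 in *Nipbl*, *Wapl* and double heterozygotes, none of which passed.

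The complexes that *Ankrd11* contacts were tested as 9 genes of the Hdac3 corepressor complex and of the nuclear receptor coactivators. In *Nipbl* heterozygotes 2 rose and 3 fell, beside 11.2% of all genes called, and the list's median was -0.04. *Ncor1*, a scaffold corepressor, fell (-0.21, edgeR adjusted *P* = 0.0328). *Hdac3*, the deacetylase of the complex, rose (0.10, edgeR adjusted *P* = 0.0996), and the coactivators *Ncoa2* (-0.26, edgeR adjusted *P* = 0.0177) and *Ncoa1* (-0.15, edgeR adjusted *P* = 0.0430) fell. Without mutant replicate 1 the count was 1 higher and 0 lower, and in the low *mt-Nd3* set 0 higher and 1 lower.

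In *Wapl* heterozygotes *Ncoa2* (-0.27, edgeR adjusted *P* = 0.0698), *Ncor1* (-0.25, edgeR adjusted *P* = 0.0845) and *Ncoa1* (-0.17, edgeR adjusted *P* = 0.0591) fell. These calls among the 9 genes stand beside 2.22% of all genes, and the number of calls in this comparison moved widely between settings. None of the 9 passed edgeR's test among low *mt-Nd3* libraries alone, which left 2 *Wapl* heterozygotes. Far fewer genes were called over the whole table in that setting too. In the same comparison 2 of 4 markers of meningeal fibroblasts were higher, with a summed level from 11206 to 22452 against 10406 to 14797 in *WT*. Of 4 pituitary markers 1 was lower, with a summed level from 31.7 to 77.1 against 22.0 to 2725 in *WT*. The part of these marker differences in the values of the 9 genes was not tested. In double heterozygotes *Ncoa1* alone of the 9 fell (-0.13, edgeR adjusted *P* = 0.0903), beside 3.28% of all genes called. *Tbl1xr1*, which ties the corepressor complex to chromatin, was higher in double than in *Wapl* heterozygotes (0.18, edgeR adjusted *P* = 0.0103), as was *Taf7* of the TFIID list (0.19, edgeR adjusted *P* = 0.0963). Of all genes 1.02% were called between these groups.

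The spread of *Ankrd11* and *Med13l* among embryos with a *Wapl* deletion followed the order in which the labels write the *Wapl* alleles, which the labels do not explain. This comparison was added after the values were seen. The paper describes a cross whose dam carried the *Wapl* deletion and another whose sire carried it. Which libraries came from which cross is not given in the sources used here. Whether the written order follows the cross was not tested. *Ankrd11* ran from 7721 through a median of 7910 to 8016 in the 6 libraries with the deletion written first and from 5916 through 6661 to 7904 in the 7 with it written second. All but 1 of the 7 lay below the lowest of the 6, and the exception was *Wapl* heterozygote replicate 4. *Med13l* ran from 3784 through 4183 to 4397 and from 2768 through 3312 to 3868, with the same library the only one of the 7 inside the range of the other set. With genotype in the model, the log2 difference of second against first was -0.33 for *Med13l* (standard error 0.0679, edgeR adjusted *P* = 0.0822), which was called. It was -0.25 for *Ankrd11* (standard error 0.0564, edgeR adjusted *P* = 0.149), which was not called by edgeR and passed by DESeq2 (adjusted *P* = 0.0111) and by edgeR without *Wapl* heterozygote replicate 4. In all, 51 genes were called, or 0.167% of those tested, 38 of them lower (0.124%). Of the markers of 10 cell types, 1 pituitary marker passed in this comparison, higher where the deletion was written second. The summed level of the pituitary markers ran from 31.7 to 77.1 in *Wapl* heterozygotes of both written orders and from 20.7 to 1187.5 in double heterozygotes. Among libraries with a deletion, sums above 77.1 thus occurred only in double heterozygotes.

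The call of *Med13l* between these sets was lost in 8 of 13 fits that each left out 1 library, namely *Wapl* heterozygote replicates 2, 5 and 6 and double-heterozygote replicates 1, 2, 3, 4 and 6, over which the log2 difference lay between -0.33 and -0.29. The largest edgeR adjusted *P* was 0.4931. Within *Wapl* heterozygotes alone the difference was -0.32 (edgeR adjusted *P* = 0.679), and within double heterozygotes alone -0.33 (edgeR adjusted *P* = 0.270), close in size and not past the threshold.

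Set against *WT*, the *Wapl* heterozygotes with the deletion written second had a log2 fold change of -0.34 for *Med13l* (edgeR adjusted *P* = 0.00174), and those with it written first had -0.03 (edgeR adjusted *P* = 0.821). Double heterozygotes gave -0.31 (edgeR adjusted *P* = 0.0153) and 0.01 (edgeR adjusted *P* = 0.924) for the same split. *Ankrd11* had -0.16 (edgeR adjusted *P* = 0.119) and 0.06 in *Wapl* heterozygotes, and -0.21 (edgeR adjusted *P* = 0.0466) and 0.04 in double heterozygotes. The subsets by written order were chosen after the values were seen, so that these *P* values are no separate evidence. Among the libraries with a deletion the order of writing and the *mt-Nd3* set coincide in 13 of 13 and cannot be told apart. *WT* libraries belong to both *mt-Nd3* sets: the 2 in the high set had means of 7678 for *Ankrd11* and 4166 for *Med13l*, and the 3 in the low set 7615 and 4189. The other members showed no such split, with log2 differences of 0.05 for *Aff4* (95% interval -0.03 to 0.13), 0.05 for *Taf1* (-0.08 to 0.19) and -0.05 for *Taf6* (-0.14 to 0.05).

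**Figure D4:**
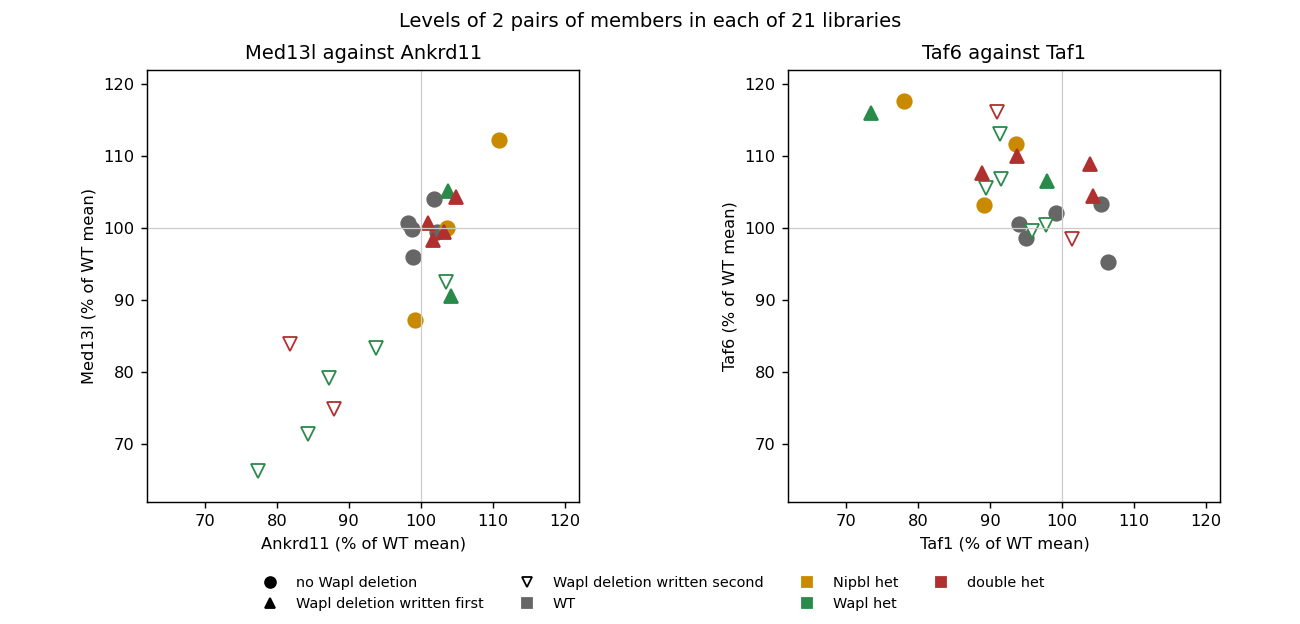
Level of *Med13l* against *Ankrd11* (left) and of *Taf6* against *Taf1* (right) in each library, both axes in percent of the *WT* mean, coloured by group and with open triangles for a deletion written second. *Med13l* and *Ankrd11* run low together in 6 open triangles, and *Taf6* is high where *Taf1* is low in *Nipbl* heterozygote replicate 1 and *Wapl* heterozygote replicate 1.

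Over the 21 libraries the levels of *Ankrd11* and *Med13l* had a Pearson correlation of 0.901 (Spearman 0.736), and 0.909 after each group's mean was removed. Removing the means of genotype groups leaves the split by written order in place. *Taf1* and *Taf6* had -0.665 (Spearman -0.619), and -0.616 after centring. The other 8 pairs of members lay between -0.20 and 0.32. These are descriptions over points that share libraries, depth and scaling. The 2 libraries with the lowest *Taf1*, *Wapl* heterozygote replicate 1 at 1838 and *Nipbl* heterozygote replicate 1 at 1954, each had the highest *Taf6* of its group, at 2483 and 2520.

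The genes whose pattern over the 21 libraries was most like each member were sought among the 13413 genes that averaged 5 CPM or more. For *Taf1* these were *Edem3*, which acts in disposal of misfolded glycoproteins (Pearson correlation 0.982), *Kif5b*, a kinesin motor (0.970), and *Atp13a3*, a transport ATPase (0.947), and all 3 fell in *Nipbl* heterozygotes, by 0.24, 0.23 and 0.42 on the log2 scale. For *Taf6* they were *Robo3*, an axon guidance receptor (0.915), *Tcf3*, an E-protein transcription factor (0.906), and *Gtf2i*, a general transcription factor (0.904), which rose in *Nipbl* heterozygotes by 0.55, 0.29 and 0.13. For *Med13l* they were *Rad54l2* (0.963), *Sec16a*, which organises export sites of the endoplasmic reticulum (0.959), and *Ksr2*, a scaffold of the MAP kinase pathway (0.953). *Rad54l2* and *Ksr2* fell in *Wapl* heterozygotes, by 0.28 and 0.32. For *Ankrd11* they included *Pkd1*, the polycystin gene (0.948), and *Gm45894* (0.946). For *Aff4* they were *Lrch2* (0.905), *Zfp292* (0.900) and *Mbtd1* (0.870), none of which was called in the 3 comparisons with *WT*. Genes alike in pattern were picked from these same libraries, so that a shared direction is no separate evidence for the member.

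Direct tests of double heterozygotes against each kind of single heterozygote called 0 members by edgeR and 0 by DESeq2. In each, 1 member had an unadjusted edgeR *P* below 0.05, beside 4.12% of all genes against *Nipbl* and 9.94% against *Wapl* heterozygotes. *Nipbl* and *Wapl* heterozygotes were not tested against each other here. Against *Nipbl* heterozygotes, double heterozygotes had *Taf1* higher by 0.17 (95% interval 0.02 to 0.31, edgeR adjusted *P* = 0.971), in a comparison that called 2 genes, 0.00655% of those tested. In that comparison 4 of 6 double heterozygotes lay above every *Nipbl* heterozygote. *Taf6* had -0.04 (-0.16 to 0.08), *Ankrd11* -0.11 (-0.26 to 0.05), *Med13l* -0.09 (-0.29 to 0.11) and *Aff4* 0.02 (-0.07 to 0.12). Against *Wapl* heterozygotes, where 1.02% of genes were called, *Med13l* had 0.16 (-0.03 to 0.35, edgeR adjusted *P* = 0.589) and *Taf1* 0.10 (-0.02 to 0.22, edgeR adjusted *P* = 0.605). The member with an unadjusted *P* below 0.05 there was *Aff4*, at 0.09 (0.01 to 0.17, edgeR adjusted *P* = 0.392).

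The interaction of the genotypes, the log2 effect of *Nipbl* loss in embryos with 1 *Wapl* copy deleted minus that in embryos with both copies, was 0.27 for *Taf1* (standard error 0.0901, 95% interval 0.09 to 0.46, edgeR adjusted *P* = 0.204). DESeq2 gave 0.30 with an adjusted *P* of 0.0770. For *Taf6* it was -0.16 (-0.31 to -0.02, edgeR adjusted *P* = 0.291), and for *Med13l*, *Aff4* and *Ankrd11* the intervals held 0. Across all genes edgeR called 0, with 4221 at an unadjusted *P* below 0.05, and DESeq2 called 793. The 5 members together had 2 with an unadjusted *P* below 0.05, beside 13.8% of all genes.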

How the data were processed

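The authors trimmed paired-end reads with cutAdapt 2.4, mapped them to mm10 (GRCm38) with STAR 2.5.3a, counted them with featureCounts (Subread 1.6.4) and deposited raw counts per gene for 21 libraries. The annotation release, the strand setting and the handling of reads shared by genes are not given in the sources used here. One *Nipbl* heterozygote library that the authors excluded was not analysed here. Groups and the order of the *Wapl* alleles came from the labels.

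Counts were tested in R 4.3.3 with edgeR 4.0.16 (TMM, quasi-likelihood test), each pair of groups on its own libraries and the interaction on all 4 groups. A gene was tested if its normalized counts came to 10 or more over all libraries and called if its *P*, adjusted by the Benjamini-Hochberg method, was below 0.10, the threshold of the study. DESeq2 1.42.0, other filters, scalings and subsets were alternatives. Intervals are 95%. Ratios of raw counts were tested by exact permutation of log2 values. Replicates are separate embryos. Scripts were tested on simulated data.

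Named were the members, *Nipbl*, *Wapl*, paralogs of members, up to 4 called genes of each list by size, and the 3 genes most correlated with each member. *Tbp*, *Ccnt1*, *Cdk8*, *Med16*, *Hdac3* and *Ap4m1* were named after their values were seen. A few genes that this rule would name are not reported here. The members and lists were chosen with earlier results of these data known. Positions came from a RefSeq table of GRCm38.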

Additional observations from a re-analysis of the deposited data

Results flagged for a closer look

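*Taf1* in *Wapl* heterozygote replicate 1 had 1838 normalized counts, far from the nearest of the other 6 libraries of its group, at 2239. The gap made up 0.655 of the group's range, above Dixon's limit for 7 samples. It was the only one of the 15 groups of members' values examined that passed this limit, and chance passes about 1 group in 20. Without this library the log2 fold change of *Taf1* in *Wapl* heterozygotes against *WT* was -0.09, with an edgeR adjusted *P* of 0.311, and the difference between deletions written second and first turned from 0.05 to -0.04.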

How the results depend on the processing

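Of 230 fold changes of members between genotypes under other settings, 209 kept their direction and their side of the threshold, as did 355 of 370 that left out 1 library. For the comparisons by written order, added after seeing the data, these were 23 of 35 and 55 of 65. Between genotypes, only *Taf1* and *Taf6* in *Nipbl* heterozygotes were called in the main fits, so that keeping a side mostly meant staying uncalled.

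The *Taf1* fold change in *Nipbl* heterozygotes ranged from -0.25 to -0.13 when each library was left out and was called in 7 of 8 fits, and was -0.18 and not called in one fit of all 4 groups. That of *Taf6* ranged from 0.10 to 0.19, was called in 4 of 8, and was 0.16 and not called with a term for the *mt-Nd3* set or in the low set alone.

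Fits with the replicate number as a block kept only libraries whose number occurs in every group compared. Against *Nipbl* heterozygotes this left out double-heterozygote replicates 4, 5 and 6. In these fits *Taf6* in *Nipbl* heterozygotes was 0.16 (edgeR adjusted *P* = 0.226) and *Med13l* in *Wapl* heterozygotes -0.18 (edgeR adjusted *P* = 0.0570). *Med13l* in double against *Nipbl* heterozygotes turned to 0.00436, with both the block and the smaller set of libraries changed. Genes called under the block numbered 1918 of *Nipbl*, 1996 of *Wapl* and 622 of double heterozygotes against *WT*, and 58 of double against *Nipbl* heterozygotes. The numbers share no stated litter or batch: deviations of same-numbered libraries correlated between -0.206 and 0.366 over 25 pairs, 7 of them above 0.1, and not every library correlated best with its own number.

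Small values changed sign as follows. *Med13l* in *Nipbl* heterozygotes was 0.000658 by DESeq2, 0.000584 with no filter, 0.0206 in one fit of all groups, and from -0.0885 to 0.0816 with each library left out. In the low *mt-Nd3* set *Ankrd11* was 0.0645 in *Wapl* and 0.0528 in double heterozygotes, and *Med13l* 0.0168 in the latter. With the deletion written first only these were 0.0566, 0.0399 and 0.0118. In the high set *Aff4* in *Wapl* heterozygotes was 0.0125 and *Taf1* in double heterozygotes 0.0123. With the *mt-Nd3* term, *Med13l* in double against *Nipbl* heterozygotes was 0.0156, and *Ankrd11* and *Taf6* in double against *Wapl* heterozygotes -0.0393 and -7.13e-05. Between deletions written second and first, within double heterozygotes, *Taf1* was -0.0107 and *Taf6* 0.00108. With each library left out, *Ankrd11* in double heterozygotes ranged from -0.0638 to 0.00197, *Taf6* from -0.0852 to 0.00205 against *Nipbl* and from -0.00773 to 0.0412 against *Wapl* heterozygotes, the *Ankrd11* interaction from -0.0740 to 0.0323, and *Taf1* between the written orders from -0.0404 to 0.11.

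Counts of genes called moved further. *Nipbl* heterozygotes against *WT* gave 3422, then 1658 in one fit of all groups, 1881 in the low set and 1828 to 4788 with each library left out, fewest without mutant replicate 1. *Wapl* heterozygotes gave 677, then 1446 by DESeq2, 305 with the *mt-Nd3* term, 7 in one fit, 47 and 278 in the low and high sets, 1300 with the deletion written second only, and 9 to 1534. Double heterozygotes gave 1001, then 602 in one fit, 1 in the high set, 1814 with the deletion written first only, and 454 to 2504. Against *Nipbl* heterozygotes they gave 2, then 5 by DESeq2, 1 with the *mt-Nd3* term, and 1 to 2, and against *Wapl* heterozygotes 311, then 626 by DESeq2, 162 with the term, 576 in one fit, and 163 to 449. The interaction gave 0, then 793 by DESeq2 and 0 to 945. The written order gave 51, then 135 by DESeq2, 4 within *Wapl* and 10 within double heterozygotes, and 10 to 123. The causes were not tested. The subsets by written order were chosen after seeing the data. The 3 *Nipbl* heterozygotes all belong to one *mt-Nd3* set.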
